A study of Mus musculus with 5 samples.

Results

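Divergent gene pairs are neighbours that are read away from each other from a shared stretch of DNA. In mouse oligodendrocytes (OLG), 50 of 1752 ZFP24 peaks lay at such pairs, and in oligodendrocyte progenitor cells (OPC) 145 of 4643 did. A peak was counted when its centre lay within 1 kb of the transcript starts of 2 protein-coding genes on opposite strands, the minus-strand start at the lower coordinate (GENCODE M21 basic annotation, mm10). The 195 peaks came from 6395 in the whole series and touched 180 gene pairs with 355 genes. They are peaks at divergent pairs and not, for the most part, peaks between the starts, since the centre lay between them in 9 OLG and 18 OPC peaks only.

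ZFP24, also called ZFP191, is a zinc finger transcription factor known to be needed for oligodendrocyte maturation. Its sites were mapped by chromatin immunoprecipitation and sequencing (ChIP-seq) with an antibody against the protein. The groups were wild-type OLG, Zfp191-null OLG, wild-type OPC, Zfp191-null OPC and an input pooled from wild-type and null cells of both types, with 1 library each. All cells came from the brain of C57BL/6 mice at postnatal day 7 and were isolated by immunopanning. The OLG had then spent 5 days in differentiating culture, where PDGF was left out and triiodothyronine added at 40 ng/ml. The deposited values were 1 peak list for OLG and 1 for OPC, with positions only, so library depth is unknown. Signal in the null cells and the input was not analysed here. No replicates exist, and no test between the cell types is given. The 95% intervals in brackets are exact (Clopper-Pearson) and cover counting error over peaks, pairs or genes only. Transcripts were not measured, so the labelled cell types could not be checked against marker genes.

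A divergent arrangement is common in mammalian genomes, mostly at CpG-rich promoters without a TATA box, and often at housekeeping genes such as those of DNA repair, mitochondria and RNA handling. Both genes may be transcribed from the stretch between them, and factors known to bind such stretches include NRF1, ETS factors, YY1, SP1 and NF-Y. ZFP24 itself is known to bind tandem TCAT repeats. The annotation held 1143 divergent pairs with starts at most 2 kb apart, made of 2244 genes.

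The stretches between the starts are printed for pairs where an OLG and an OPC peak overlapped and the paired genes did not, since both genes are read outward from that stretch. They are not the peaks themselves: at 6 of these 7 pairs neither peak reached the stretch, and at Rbks/Babam2 both did. All sequences are the plus strand of GRCm38.p6 (mm10), from 10 bases before the minus-strand start to 10 bases after the plus-strand start. Capitals mark matches, on either strand, to 7 promoter motifs, namely CCAAT (the NF-Y box), GGGCGG (the GC box of SP1), CCGGAA (an ETS core), GCATGCGC (an NRF1 core), AAGATGG (a YY1 core), TGACGTCA (the cAMP response element) and TATAAA (the TATA box).
Exosc8/Alg5, chr3:54735383-54735549: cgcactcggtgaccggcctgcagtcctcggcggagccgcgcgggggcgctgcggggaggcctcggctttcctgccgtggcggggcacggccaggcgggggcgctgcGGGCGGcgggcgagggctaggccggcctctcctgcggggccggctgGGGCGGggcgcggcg
Mettl8/Dcaf17, chr2:71055573-71055754: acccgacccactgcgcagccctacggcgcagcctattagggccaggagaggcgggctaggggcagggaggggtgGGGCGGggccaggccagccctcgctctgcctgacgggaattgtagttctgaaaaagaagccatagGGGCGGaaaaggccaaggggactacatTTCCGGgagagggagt
Rnft2/2410131K14Rik, chr5:118245106-118245237: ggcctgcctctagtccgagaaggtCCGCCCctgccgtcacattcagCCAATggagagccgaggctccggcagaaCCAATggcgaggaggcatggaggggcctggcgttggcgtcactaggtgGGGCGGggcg
Fbxo9/Ick, chr9:78109055-78109202: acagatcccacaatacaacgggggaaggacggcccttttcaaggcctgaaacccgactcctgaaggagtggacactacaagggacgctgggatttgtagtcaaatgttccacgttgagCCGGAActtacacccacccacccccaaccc
Rbks/Babam2, chr5:31697617-31697694: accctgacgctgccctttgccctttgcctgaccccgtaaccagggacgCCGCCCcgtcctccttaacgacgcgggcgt
Cpeb3/March5, chr19:37207498-37207553: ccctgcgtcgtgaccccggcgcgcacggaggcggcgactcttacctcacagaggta
Dzip3/Cip2a, chr16:48994155-48994195: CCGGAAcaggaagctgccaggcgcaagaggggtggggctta
GC boxes stood in 4 of these 7 stretches and CCGGAA in 3, of which that of Dzip3/Cip2a lay in the printed flank. In windows of 200 bp at the midpoints of all annotated pairs, GGGCGG was found in 49.2% and CCGGAA in 30.2%. The printed stretches are shorter, at 41 to 182 bases, so the 2 are not like for like. None of the motifs was in the Cpeb3/March5 stretch.

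Most divergent pairs had no peak in either cell type. An OLG peak lay at 52 of the 1143 annotated pairs, or 4.55% (3.42 to 5.92), and an OPC peak at 144, or 12.6% (10.7 to 14.7). Of all 21851 protein-coding genes, 4.04% had an OLG peak centre within 1 kb of a start and 8.15% an OPC peak centre. Promoter peaks are those with the centre within 1 kb of any protein-coding start. Divergent-pair peaks made up 50 of 838 promoter peaks in OLG, or 5.97% (4.46 to 7.79), and 145 of 1646 in OPC, or 8.81% (7.48 to 10.3), and these intervals overlapped. The number of peaks in a list also depends on depth and calling, and with 1 library per cell type these cannot be told apart from the cell type.

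Genes of divergent pairs were set beside all other protein-coding genes. In OLG, 121 of the 2244 pair genes, or 5.39% (4.49 to 6.41), had a peak within 1 kb of their own start, against 761 of 19607 other genes, or 3.88% (3.62 to 4.16). In OPC, 326 pair genes, or 14.5% (13.1 to 16.1), had one, against 1454 other genes, or 7.42% (7.05 to 7.79). A single peak can count for both genes of a pair, and the shares over pairs given above do not have this double count. Those shares are over pairs, however, and need a centre within 1 kb of both starts, not of 1. The GC content of the 200 bp around the outermost start moved with the class, with a median of 62.5% in pair genes and 59% in other genes. Its part in the difference was not tested, but shares within GC classes were computed. At starts with 70% GC and over, 7.76% (5.46 to 10.6) of pair genes and 8.51% (7.68 to 9.40) of other genes had an OLG peak. In the same class, an OPC peak lay at 18% (14.5 to 21.8) of pair genes and 13.2% (12.2 to 14.3) of other genes. At starts under 50% GC, 6 of 179 pair genes, or 3.35% (1.24 to 7.15), had an OLG peak, against 0.846% (0.615 to 1.13) of 5200 other genes. There, 27 of 179 pair genes, or 15.1% (10.2 to 21.2), had an OPC peak, against 1.94% (1.58 to 2.36) of the other genes. These intervals count the genes of a pair as independent, although they can share a peak, and so are too narrow to set the classes apart. The classes between, from 50% to under 70% GC, had OLG shares of 3.04% and 6.27% in pair genes, against 1.96% and 5.11% in other genes. Their OPC shares were 10.5% and 15.6% in pair genes, against 5.07% and 10.6% in other genes.

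Pairs with a peak were closely spaced, as most divergent pairs are. The starts of the pairs lay 124.5 bp apart in the median at OLG peaks (quartiles 75.2 and 262, range 1 to 1132) and 127 bp apart at OPC peaks (57 and 243, range 2 to 1612). All 1143 annotated pairs had a median spacing of 158 bp. Spacing was under 300 bp at 40 of 50 OLG and 116 of 145 OPC peaks. The closest pairs were Arfrp1/Zgpat in OLG, at 1 bp, and Map4k5/Atl1 in OPC, at 2 bp, and the widest were Hist1h3c/Hist1h2bb in OLG and Tshz1/Zadh2 in OPC. These 4 pairs were picked as the extremes after their values were seen.

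By spacing, an OLG peak lay at 19 of 389 pairs under 100 bp apart, or 4.88% (2.97 to 7.52). It lay at 5.72% (3.66 to 8.46) of 402 pairs at 100 to under 300 bp, at 4.33% (2 to 8.05) of 208 pairs at 300 to under 1000 bp and at 0.694% (0.0176 to 3.81) of 144 pairs at 1000 to 2000 bp. The OPC shares in the same order were 15.9% (12.4 to 20), 12.9% (9.81 to 16.6), 13% (8.73 to 18.3) and 2.08% (0.432 to 5.97). Intervals overlapped among the 3 classes below 1000 bp in each list. The rule itself lowers the share of the widest class, because the room in which a centre is within 1 kb of both starts shrinks as the starts move apart.

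**Figure D1:**
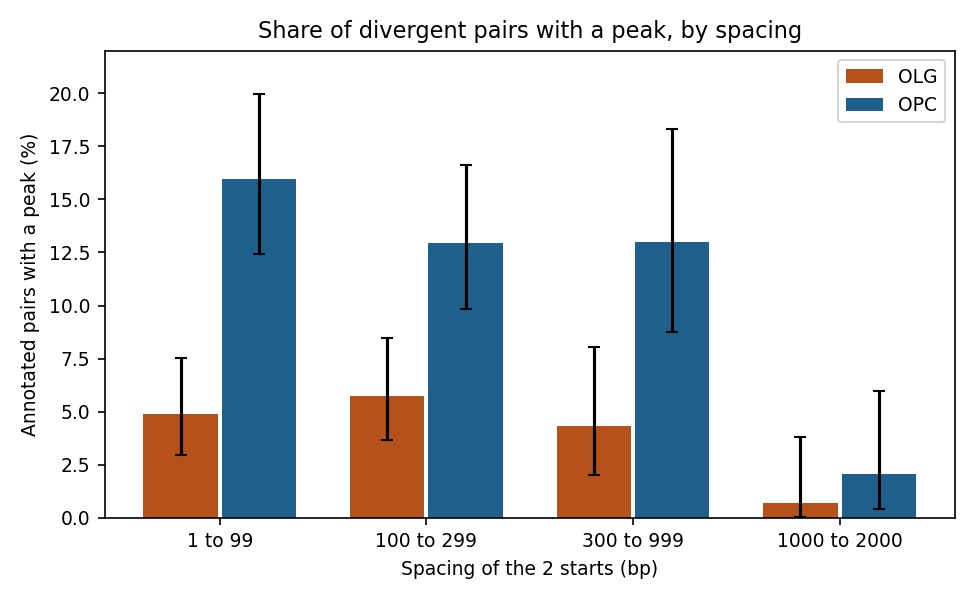
The bars give the percentage of annotated divergent pairs with a peak, for OLG and OPC, in 4 classes of spacing between the 2 starts in bp, with exact 95% intervals. OPC bars stand at 12.9% to 15.9% and OLG bars at 4.33% to 5.72% below 1000 bp, and both are lowest in the widest class.

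Peaks mostly sat beside the shared stretch, in the 5' part of 1 of the 2 genes. The centre lay on or past a start, on the side of 1 gene, in 41 of 50 OLG peaks, or 82%, and in 127 of 145 OPC peaks, or 87.6%. In at least 3 of these OLG and at least 11 of these OPC peaks the annotated body of a second gene, mostly the other of the pair, also reached over the centre. These counts are lower bounds, since a second gene was counted only where both had the same kind of feature (coding exon, untranslated exon or intron) there. The sides were used about equally, with 19 OLG peaks in the minus-strand and 22 in the plus-strand gene, and 65 and 62 in OPC. Other promoter peaks lay downstream of their nearest start in 595 of 788 cases in OLG, or 75.5%, and in 1034 of 1501 in OPC, or 68.9%. The share of the centres allowed by the rule that falls between the starts averaged 12.3% over the OLG and 12.8% over the OPC peaks. The observed shares were 18% (8.58 to 31.4) and 12.4% (7.53 to 18.9), OLG first, and each interval holds the average of its list.

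The nearer start was 210.5 bp from the centre in the median at OLG peaks (range 1 to 797) and 205 bp at OPC peaks (range 5 to 952). Other promoter peaks had medians of 294.5 bp in OLG and 267 bp in OPC. The median distance to the midpoint of the pair was 269.5 bp in OLG and 247 bp in OPC, and 11 OLG and 21 OPC peaks were within 100 bp of it. Untranslated exons held the centre of 21 OLG peaks, or 42% (28.2 to 56.8), and of 60 OPC peaks, or 41.4% (33.3 to 49.8). Introns held 24% (13.1 to 38.2) and 35.9% (28.1 to 44.2), coding exons 20% (10 to 33.7) and 12.4% (7.53 to 18.9), and sequence outside genes 14% and 10.3%, the OLG share first. The annotated bodies of the paired genes overlapped, through other transcripts, at 11 OLG and 31 OPC peaks.

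**Figure D2:**
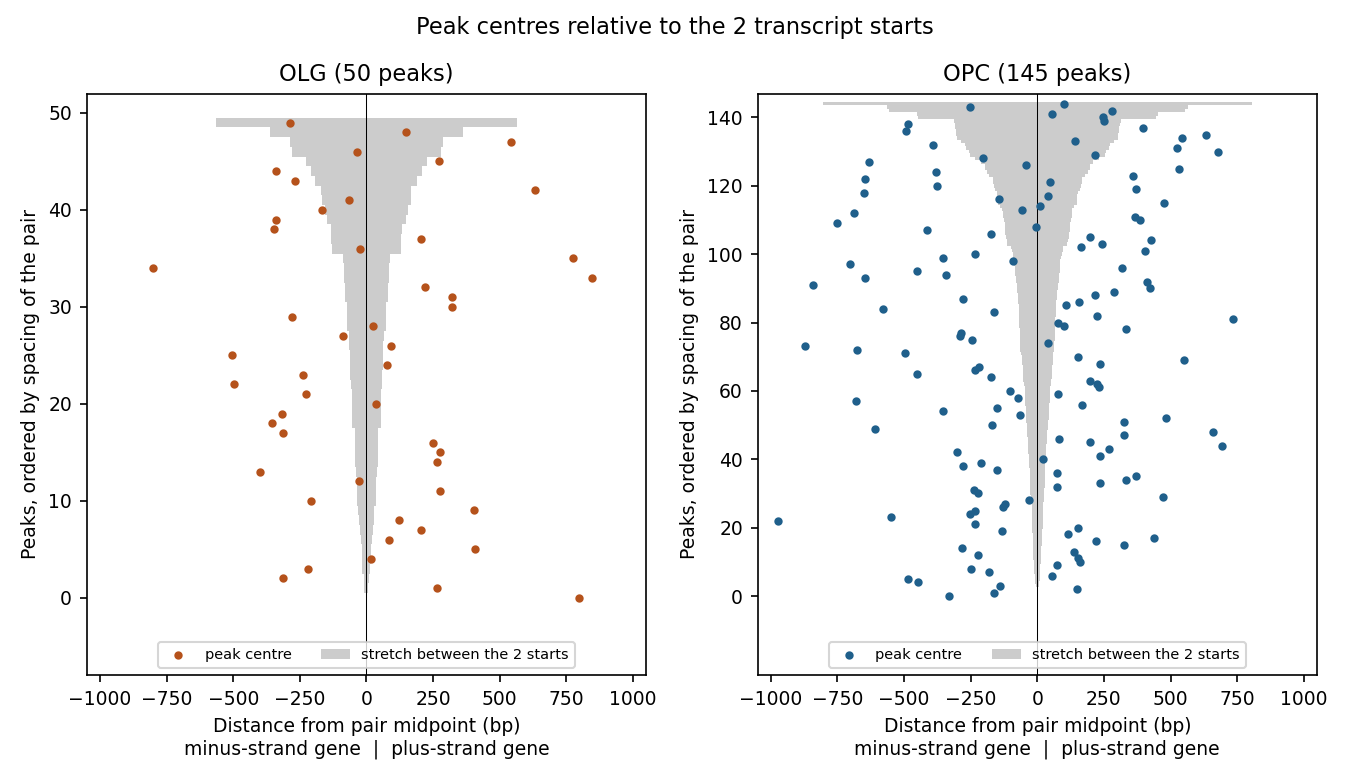
Each point is the centre of 1 peak, given as the distance in bp from the midpoint of its pair, with the minus-strand gene to the left. Peaks are ordered by spacing, and the grey band is the stretch between the 2 starts. Points lie to both sides of the band, with 9 of 50 OLG and 18 of 145 OPC centres inside it.

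The OLG centres closest to the middle of their pair were at Noc4l/Ddx51 (chr5:110653340-110653560), 16 bp from the midpoint, Aimp1/Tbck at 24 bp, Slc39a6/Elp2 at 26 bp, Slc5a6/Atraid at 29.5 bp, Capza1/St7l at 36 bp and Rad51c/Tex14 at 37.5 bp. Noc4l and Ddx51 both act in ribosome assembly, Aimp1 is a scaffold of the tRNA synthetase complex, and Rad51c acts in recombination repair. In OPC they were at Hist1h2an/Hist1h2bp (chr13:21787230-21787438), at 5.5 bp, Hist1h2bl/Hist1h2ai at 9.5 bp, Vta1/Nmbr at 19.5 bp, Gatc/Triap1 at 29.5 bp, and Cep63/Anapc13 and Pole3/4933430I17Rik at 39.5 bp each. Vta1 acts in endosomal sorting, Gatc in mitochondrial glutaminyl-tRNA formation and Pole3 in DNA polymerase epsilon. The stretches of 6 of these pairs, with genes that do not overlap, are printed because here the peak centre lay between the starts. The peak spanned both starts at Noc4l/Ddx51, Rad51c/Tex14 and Vta1/Nmbr. At Aimp1/Tbck and the histone pairs it covered only part of the stretch. Motifs are in capitals as above, with the same 10-base flanks.
Noc4l/Ddx51, chr5:110653407-110653461: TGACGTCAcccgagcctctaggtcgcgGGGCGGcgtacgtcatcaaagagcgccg
Aimp1/Tbck, chr3:132683874-132684154: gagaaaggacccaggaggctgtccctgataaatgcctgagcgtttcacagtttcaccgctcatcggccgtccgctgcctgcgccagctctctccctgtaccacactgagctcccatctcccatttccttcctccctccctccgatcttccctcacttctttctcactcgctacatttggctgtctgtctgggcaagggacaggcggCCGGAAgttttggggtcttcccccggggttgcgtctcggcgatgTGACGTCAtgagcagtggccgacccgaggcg
Rad51c/Tex14, chr11:87404944-87405075: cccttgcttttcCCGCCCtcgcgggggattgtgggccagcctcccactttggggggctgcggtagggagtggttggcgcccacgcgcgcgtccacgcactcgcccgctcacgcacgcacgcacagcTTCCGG
Hist1h2an/Hist1h2bp, chr13:21787208-21787471: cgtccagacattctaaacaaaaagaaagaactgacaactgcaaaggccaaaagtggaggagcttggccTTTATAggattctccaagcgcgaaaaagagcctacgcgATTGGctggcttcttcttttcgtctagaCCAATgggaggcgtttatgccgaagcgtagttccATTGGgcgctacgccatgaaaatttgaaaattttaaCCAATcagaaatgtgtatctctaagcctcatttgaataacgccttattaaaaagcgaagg
Hist1h2bl/Hist1h2ai, chr13:21716133-21716432: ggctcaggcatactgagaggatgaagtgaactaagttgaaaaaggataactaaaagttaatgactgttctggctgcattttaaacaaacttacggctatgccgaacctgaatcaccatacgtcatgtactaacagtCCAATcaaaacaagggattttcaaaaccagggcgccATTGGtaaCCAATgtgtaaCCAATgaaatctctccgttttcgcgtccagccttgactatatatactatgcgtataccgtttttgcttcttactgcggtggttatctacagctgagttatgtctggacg
Vta1/Nmbr, chr10:14705550-14705631: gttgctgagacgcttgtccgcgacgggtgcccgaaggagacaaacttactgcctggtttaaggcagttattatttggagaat
The Noc4l/Ddx51 stretch held a GC box and, in the flank past the Noc4l start, a cAMP element. The Aimp1/Tbck stretch held CCGGAA and, past the end of its OLG peak, a cAMP element. The Rad51c/Tex14 stretch held a GC box and, in the flank past the Tex14 start, CCGGAA. Each histone stretch held 4 CCAAT boxes, and that of Hist1h2an/Hist1h2bp also 1 TATA box. None of the motifs was in the Vta1/Nmbr stretch. Histone genes exist in many similar copies, and the treatment of reads that fit several copies was not given in the sources used here.

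Pairs with a peak in both cell types numbered 16, which is 30.8% (18.7 to 45.1) of the OLG pairs and 11.1% (6.49 to 17.4) of the OPC pairs. The peaks of the 2 lists overlapped at 10 of them, with centres 1 to 173 bp apart and a median of 71.5 bp. All 10 had both peaks on the same side of the pair. At peak level, 11 OLG divergent-pair peaks, or 22% (11.5 to 36), overlapped an OPC peak, against 17.4% (14.8 to 20.2) of other OLG promoter peaks and 14.5% of all OLG peaks. In the other direction, 10 OPC divergent-pair peaks, or 6.90% (3.36 to 12.3), overlapped an OLG peak, against 9.13% (7.72 to 10.7) of other OPC promoter peaks and 5.47% of all OPC peaks. The intervals of divergent-pair and other promoter peaks overlapped in both lists.

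The closest match was at Exosc8/Alg5, an RNA exosome subunit gene beside a gene of protein glycosylation. Its OLG peak (chr3:54735077-54735297) and OPC peak (chr3:54735084-54735292) had centres 1 bp apart, in an untranslated exon of Exosc8. At Cpeb3/March5, an RNA-binding translation regulator beside a mitochondrial ubiquitin ligase, the centres were 31 bp apart, in an intron of March5. At Pced1a/Vps16 they were 38 bp apart on the Pced1a side, where Vps16 serves fusion with lysosomes. At Sdhaf2/Cpsf7 they were 48 bp apart on the Cpsf7 side. Sdhaf2 acts in assembly of succinate dehydrogenase and Cpsf7 in cleavage of pre-mRNA ends.

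At Rbks/Babam2 the OPC peak spanned both starts and the OLG peak the Babam2 start. The centres were 51 bp apart on the Babam2 side, at 95 bp from that start in OLG and 44 bp in OPC. Rbks encodes ribokinase and Babam2 a subunit of a BRCA1 complex. The gap was 92 bp at Mettl8/Dcaf17, 101 bp at Rnft2/2410131K14Rik, 105 bp at Eaf2/Iqcb1, 172 bp at Dzip3/Cip2a and 173 bp at Fbxo9/Ick. Of these genes, Mettl8 modifies mitochondrial tRNA, Dcaf17 and Fbxo9 are substrate receptors of ubiquitin ligases, Iqcb1 and Ick act at the cilium, and Cip2a inhibits protein phosphatase 2A.

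At the other 6 pairs the OLG and OPC peaks did not overlap, with centres 233 to 616 bp apart. At 3 of them the peaks fell on opposite genes. At Glb1l/Stk16 the OLG peak was in Stk16, a kinase gene, and the OPC peak in Glb1l, 616 bp away. At Pdxdc1/Mpv17l the OLG peak was in Pdxdc1 and the OPC peak in Mpv17l, 358 bp away. At Cebpz/Ndufaf7 the OLG peak was in Cebpz and the OPC peak in Ndufaf7, a complex I assembly gene, 404 bp away. At Zfp319/Usb1 the OLG centre was between the starts and the OPC centre 480 bp into Zfp319. Both peaks lay in Ndufaf5, another complex I assembly gene, at Esf1/Ndufaf5 (233 bp apart) and in Eef1akmt3 at Eef1akmt3/Mettl1 (293 bp apart). Mettl1 encodes a tRNA methyltransferase and Eef1akmt3 a methyltransferase of a translation elongation factor. One further OLG peak, at Ift80/Smc4, overlapped an OPC peak that was itself not within 1 kb of both starts.

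**Figure D3:**
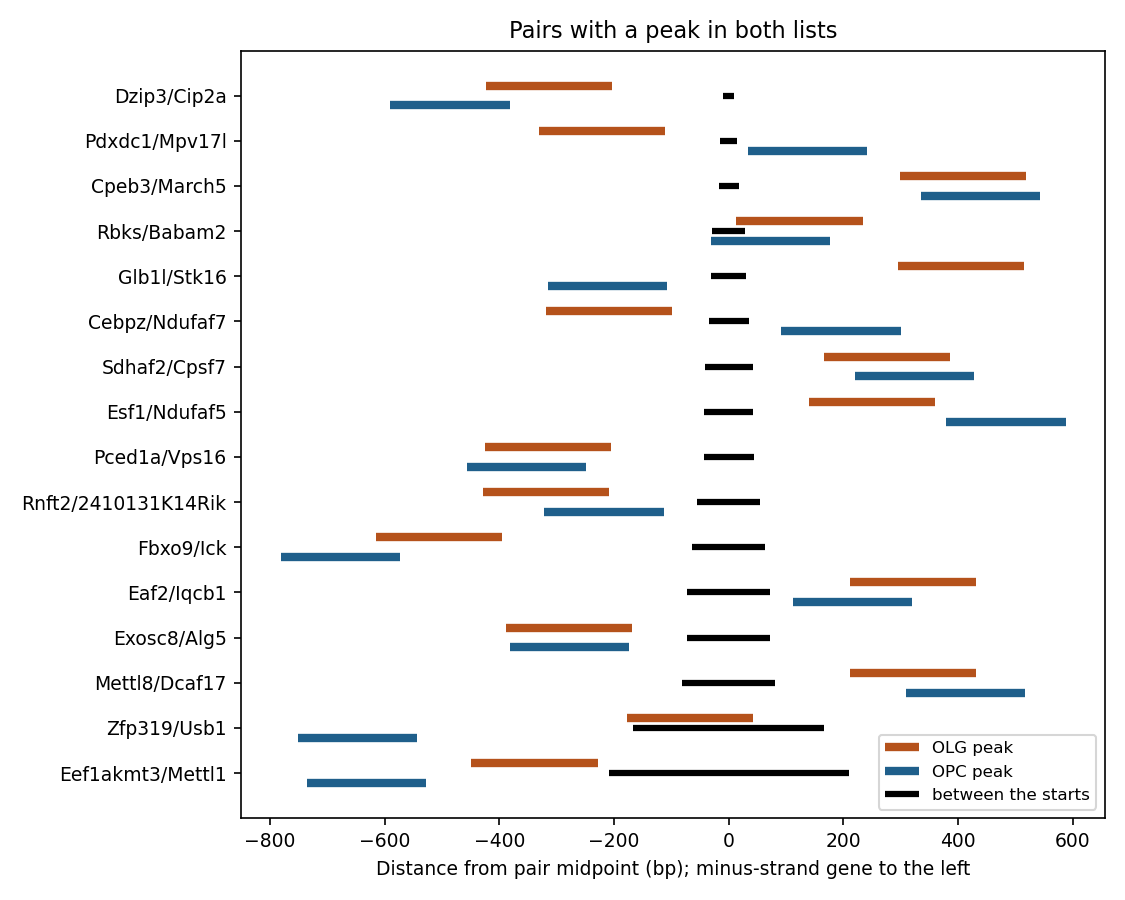
The 16 pairs with a peak in both lists are drawn to scale, with OLG peaks above OPC peaks in each row and the stretch between the 2 starts as a black bar. The x axis is the distance from the pair midpoint in bp. Peaks overlap at 10 pairs, with both centres on the same side of the midpoint, and fall on opposite sides at Glb1l/Stk16, Pdxdc1/Mpv17l and Cebpz/Ndufaf7.

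Tandem TCAT tracts of 12 bases or more, in any phase and on either strand, were nearly absent from divergent-pair peaks. In the 200 bp around the centre, 1 of 50 OLG peaks held one, or 2% (0.0506 to 10.6), against 2.79% (1.76 to 4.20) of other OLG promoter peaks and 5.71% of all OLG peaks. In OPC 1 of 145 peaks did, or 0.690% (0.0175 to 3.78), against 2.73% (1.97 to 3.69) of other OPC promoter peaks and 12.2% of all OPC peaks. The upper bound in OPC was below the share of all OPC peaks, and the intervals met those of other promoter peaks in both lists. None of the windows around the 1143 pair midpoints held a tract, which allows a share of up to 0.322%. The tracts of these 2 peaks are printed, on the plus strand and in capitals, because they were the matches to the known ZFP24 repeat within this window. In 400 bp around the centre, 1 OLG and 2 OPC peaks held a tract.
Rnft2/2410131K14Rik, chr5:118244788-118244816: atgctacaGAATGAATGAATGgaccatct
Rnf121/Xndc1, chr7:102064496-102064572: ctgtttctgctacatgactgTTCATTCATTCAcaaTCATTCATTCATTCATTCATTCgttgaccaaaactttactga
The Rnft2 tract of 13 bases lay in an untranslated exon under the OLG peak, and the overlapping OPC peak (chr5:118244850-118245058) began to its right. The Rnf121 tracts, of 12 and 22 bases, lay in an intron of that ubiquitin ligase gene, in a peak with 36% GC whose centre was 994 bp from the Xndc1 start.

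The CCAAT box was less frequent around the peak centres than at the midpoints of divergent pairs. The 2 kinds of window are not like for like. Most peak centres lay beside the stretch between the starts, and the midpoints take in all annotated pairs, most of them without a peak. The part of either in the difference was not tested. CCAAT was in 14% (5.82 to 26.7) of OLG and 11.7% (6.98 to 18.1) of OPC divergent-pair peaks, against 33.9% (31.1 to 36.7) of the midpoints of all annotated pairs. GGGCGG was in 40.0% (26.4 to 54.8) and 27.6% (20.5 to 35.6), OLG first, against 49.2% (46.2 to 52.1) of midpoints. CCGGAA was in 20% (10 to 33.7) and 17.2% (11.5 to 24.4), against 30.2% (27.5 to 32.9). For these last motifs the OPC intervals lay below those of the midpoints, and the OLG intervals overlapped them. Other promoter peaks held CCAAT in 10.7% (OLG) and 14.5% (OPC), GGGCGG in 41.1% and 31.8%, and CCGGAA in 12.3% and 13.5%, and each of these shares lay within the interval of the divergent-pair peaks. TATAAA was in 1 OLG peak, or 2% (0.0506 to 10.6), and in 8 OPC peaks, or 5.52% (2.41 to 10.6), against 1.02% and 2.20% of other promoter peaks and 4.64% of midpoints. The OPC interval lay above the share of other promoter peaks but overlapped their interval (1.52 to 3.07). GCATGCGC was in 1 OLG and 1 OPC peak, AAGATGG in 2 and 4, and TGACGTCA in 1 and 0. The other promoter peaks held them in 0.508%, 4.31% and 0.508% of cases in OLG and in 0.799%, 4.20% and 0.200% in OPC, and the midpoints in 4.72%, 6.30% and 3.59%. In all, 31 of 50 OLG and 72 of 145 OPC peaks held at least 1 of the 7 motifs. A match is only a match of letters.

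Base composition was close to that of other promoter peaks. The median GC content was 67% (quartiles 63.5 and 70) in OLG and 63% (55.5 and 68.5) in OPC divergent-pair peaks, and 68.5% and 64% in other promoter peaks. The ratio of observed to expected CpG had medians of 0.797 in OLG and 0.828 in OPC, against 0.827 and 0.784 in other promoter peaks. Peaks outside promoters had medians of 0.255 and 0.238.

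**Figure D4:**
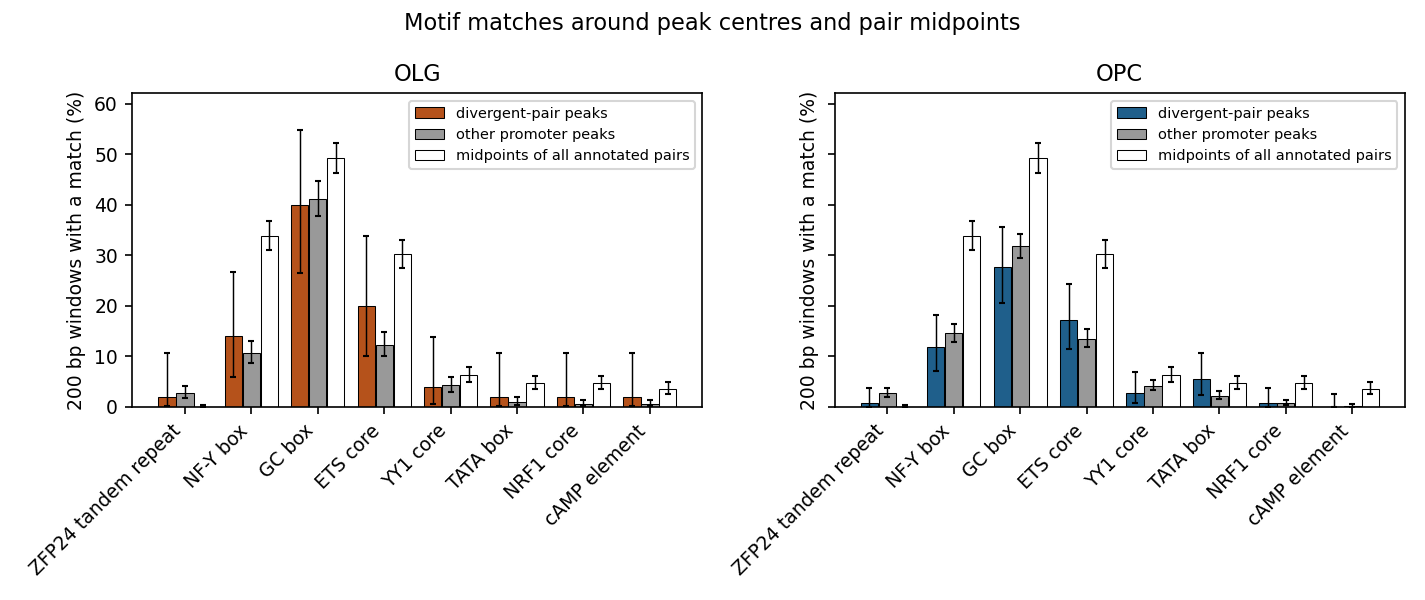
Bars give the percentage of 200 bp windows with a motif match, for divergent-pair peaks, other promoter peaks of the same list and midpoints of all annotated pairs, with exact 95% intervals, in OLG (left) and OPC (right). The midpoints stand above the peaks for the NF-Y box, at 33.9% against 14% in OLG and 11.7% in OPC, and the tandem repeat is at most at 2.79% in any group.

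The genes at these pairs were set out by 13 functional groups, defined by symbol patterns. Groups below are read against the share of all 2244 pair genes whose pair had a peak, 4.55% in OLG and 12.7% in OPC. They covered 35 of 102 OLG pair genes (34.3%) and 83 of 285 OPC pair genes (29.1%), against 24.9% of all pair genes, so most genes at these sites were in none. The counts are descriptions, and no group was tested. A gene is counted when its pair had a peak, so the peak centre can lie in the partner gene and not in the gene named. The share of all members of a group, paired or not, with a peak within 1 kb of a start was also computed. It has another base, the share of all protein-coding genes with such a peak, 4.04% in OLG and 8.15% in OPC. These whole-group shares were 7.93% in OLG and 19.5% in OPC for cell cycle genes, 8.09% and 16.5% for RNA processing, 5.82% and 14.2% for ribosome and translation, and 5.42% and 12.5% for mitochondrial genes. They were 7.32% and 13.4% for histones, 4.61% and 13.8% for replication and repair, 5.42% and 12.3% for transcription and chromatin, and 6.19% and 12% for ubiquitin and proteasome. They were 4.68% and 8.87% for membrane traffic and 3.78% and 9.74% for zinc fingers.

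Cell cycle genes had peaks at 2 of 33 pair genes in OLG (6.06%) and 7 of 33 in OPC (21.2%). The OLG genes were Cenpk, a kinetochore gene paired with Ppwd1, and Haus8, a spindle gene paired with Myo9b. Both peak centres lay in the partner gene, 154 bp from the Cenpk start and 800 bp from the Haus8 start. In OPC, 5 of the 7 were subunits of the anaphase-promoting complex, the ubiquitin ligase that starts anaphase. They were Anapc11 (with Alyref, 56 bp apart), Anapc2 (with Ssna1, 62 bp), Anapc13 (with Cep63, 129 bp), Cdc26 (with Prpf4, 155 bp) and Cdc27 (with Myl4, 180 bp). Ska3 (with Mrpl57, 71 bp) and Cenpj (with Parp4, 237 bp), of the kinetochore and the centriole, were the others. The symbol patterns set which genes were counted among the 7, and they left out Cep63. Looking up the complex was decided after these members were seen. Of its 16 genes 7 are in annotated divergent pairs, and of these 0 had a pair with an OLG peak and 5 one with an OPC peak. Anapc10 and Anapc16 were the remaining 2. Over all 16 genes, in divergent pairs or not, 2 had an OLG peak centre and 7 an OPC peak centre within 1 kb of a start. Of all protein-coding genes, 4.04% had such an OLG centre and 8.15% such an OPC centre.

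Genes of DNA replication and repair had peaks at 5 of 53 pair genes in OLG (9.43%) and 7 of 53 in OPC (13.2%). The OLG genes were Rad1, a subunit of a checkpoint clamp (with Brix1, 71 bp), Mcm9, a helicase gene of recombination (with the histone chaperone Asf1a, 109 bp), Rad51c (with Tex14, 111 bp), Pole, the catalytic subunit of DNA polymerase epsilon (with Pxmp2, 120 bp), and Smc4, of condensin (with Ift80, 168 bp). In OPC the 4 closest pairs were those of Lig4, the ligase of end joining (with Abhd13, 21 bp), Rpa1, of the single-strand binding complex (with Smyd4, 109 bp), Orc1, of the origin recognition complex (with Prpf38a, 118 bp), and Smc6 (with the resolvase Gen1, 120 bp). Polk, a bypass polymerase, had 2 OPC peaks at its pair with Col4a3bp, 1 in each gene. The symbol patterns of this group did not take in Gen1 or Helq, which were also at OPC pairs.

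Mitochondrial genes had peaks at 4 of 78 pair genes in OLG (5.13%) and 13 of 78 in OPC (16.7%). In OLG they were Ndufaf7, Sdhaf2, Ndufaf5 and Mrpl40 (with the histone chaperone Hira, 175 bp), and the first 3 also had OPC peaks at their pairs. In OPC the closest pairs were Ndufs1/Eef1b2, complex I beside translation elongation, at 3 bp, Helq/Mrps18c at 29 bp, Mrpl46/Mrps11 at 30 bp and Uqcrb/Gm10767 at 37 bp. Mrpl46/Mrps11 joins genes of the large and small mitochondrial ribosomal subunits. Hadha/Hadhb, named after its values were seen, joins the 2 subunits of the trifunctional protein of fatty acid oxidation at 86 bp, and its OPC peak centre was 23 bp from the Hadha start.

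Genes of ribosome and translation had peaks at 4 of 53 pair genes in OLG (7.55%) and 11 of 53 in OPC (20.8%). The OLG genes were Utp4, of small-subunit assembly (with Chtf8, 50 bp), Aimp1 (with Tbck, 260 bp), the ribosomal protein gene Rpl35a (with Iqcg, 263 bp) and Eef1akmt3. The closest OPC pairs were those of Eef1b2, Utp15 (with Ankra2, 33 bp), Rpl9 (with Lias, 53 bp) and Wdr76 (with Mfap1a, 58 bp), the last a gene that the symbol pattern took in and that is not known as a translation gene. RNA processing genes had peaks at 6 of 74 pair genes in OLG (8.11%) and 14 of 74 in OPC (18.9%). The closest in OLG were Ddx51, Cpsf7, Exosc8 and Mettl8, and in OPC Srsf11, a splicing factor gene (with Lrrc40, 23 bp), Dhx38, a spliceosome helicase gene (with Txnl4b, 31 bp), Cpsf7 and Prpf38a.

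Histone genes had peaks at 4 of 38 pair genes in OLG (10.5%) and 6 of 38 in OPC (15.8%). Of 21 annotated pairs of 2 histone genes, 2 had an OLG peak and 3 an OPC peak, where 4.55% and 12.6% of all 1143 pairs did. None had both, which 16 of all pairs had. The OLG pairs were Hist1h2ak/Hist1h2bn (296 bp) and Hist1h3c/Hist1h2bb (1132 bp), whose peak had 38.5% GC, the lowest of the OLG divergent-pair peaks. The OPC pairs were Hist2h2ac/Hist2h2be (239 bp), Hist1h2an/Hist1h2bp (243 bp) and Hist1h2bl/Hist1h2ai (279 bp).

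Ubiquitin and proteasome genes had peaks at 6 of 64 pair genes in OLG (9.38%) and 8 of 64 in OPC (12.5%), and March5, Fbxo9 and Dcaf17 were in both. Ubr7 (with Gon7, 164 bp) was the other of the 4 closest in OLG, and Rnf121 (with Xndc1, 42 bp) and Dcaf13 (with Slc25a32, 149 bp) were among the 4 closest in OPC. Membrane traffic genes had 2 of 68 in OLG (2.94%), Vps16 and Ift80, and 7 of 68 in OPC (10.3%), with the closest at Snx5/Mgme1 (35 bp), Dus4l/Cog5 (43 bp), Pced1a/Vps16 and Vps9d1/Zfp276 (103 bp). Zinc finger genes had 1 of 36 in OLG (2.78%), Zfp319, and 5 of 36 in OPC (13.9%), with Zscan29, Zfp277, Zfp408 and Zfp276 at the closest pairs.

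Transcription and chromatin genes had 0 of 49 in OLG, and 4 of 49 in OPC (8.16%), namely Arid4b (with Ggps1, 297 bp), Polr1d (with Lnx2, 464 bp), Cbx5, of heterochromatin (with Hnrnpa1, 616 bp), and the co-repressor Ncor1 (with Pigl, 1128 bp). The symbol patterns of this group did not take in the histone chaperone genes Asf1a and Hira, which were at OLG pairs. Genes of cholesterol and lipid synthesis had 1 of 9 in each list, Pigw in OLG and Pigl in OPC, both of glycosylphosphatidylinositol anchors. The oligodendrocyte lineage and myelin group had 1 gene in an annotated divergent pair and the collagen and matrix group 4, and none had a peak at its pair in either list. Over all 61 genes of the lineage and myelin group, 13.1% had a peak centre within 1 kb of a start in OLG and 14.8% in OPC. The shares of all protein-coding genes were 4.04% and 8.15%.

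**Figure D5:**
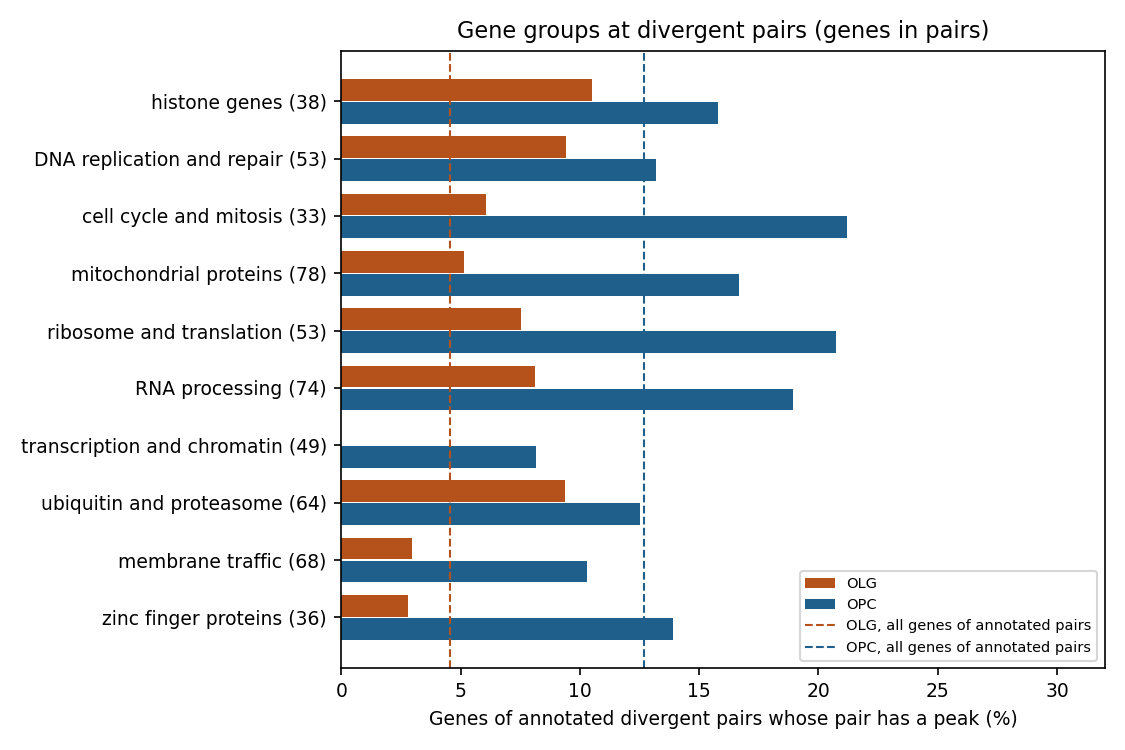
Bars give, for OLG (upper) and OPC (lower), the percentage of a group's genes in annotated divergent pairs whose pair had a peak, for the 10 groups with at least 30 such genes (number in brackets). Dashed lines mark all pair genes, at 4.55% for OLG and 12.7% for OPC, and cell cycle genes in OPC reach 21.2%.

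Of 11 divergent pairs known from textbooks and reviews, none had a peak in either list that met the rule. The annotation placed 7 of them in divergent order, Hspd1/Hspe1, Mcm4/Prkdc, Atm/Npat, Gart/Son, Trp53/Wrap53, Sars2/Mrps12 and Brca1/Nbr1. These 7 are too few to read against the shares of all pairs. The other 4, among them Col4a1/Col4a2, Ppat/Paics and Surf1/Surf2, have starts that cross over, so the rule leaves them out.

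Sites near the limit of 1 kb give its scale. The OLG peaks just inside were those of Ift80/Smc4, with the farther start at 931 bp, and Ccdc189/Rnf40 at 886 bp, and those just outside were at Dpm1/Mocs3 at 1005 bp and Ccdc148/Pkp4 at 1051 bp. In OPC, Rnf121/Xndc1 at 994 bp and Thap2/Zfc3h1 at 938 bp were inside, and Ccdc92/Zfp664 at 1019 bp and Cntrob/Trappc1 at 1053 bp outside. More than 1 peak of the same list lay at 0 pairs in OLG and at 4 in OPC, Ewsr1/Rhbdd3, Polk/Col4a3bp, Knop1/Iqck and Cep63/Anapc13. A peak met the rule for 2 pairs in 2 OLG and 3 OPC cases, since a further gene model on 1 side also had a start in reach. At Chtf8/Utp4 this was a second gene model named Chtf8.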

How the data were processed

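ZFP24 ChIP-seq was run on wild-type and Zfp191-null OLG and OPC, and the submitters' processing notes name the build mm10, BWA (no version) and HOMER 4.8.3. The sample descriptions name the null libraries as controls for these lists. Calling options, the threshold and how null and input libraries entered the calling were not given in the sources used here. The deposited values were 2 BED lists, 1 from OLG and 1 from OPC, with 4 columns and no score. Peaks were 221 bp wide in OLG and 209 bp in OPC, and 0 ran past a chromosome end of GRCm38.p6.

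Positions were converted to 1-based coordinates. Starts were those of protein-coding transcripts of protein-coding genes in GENCODE M21 basic. Pair spacing is the smallest distance between starts that met the rule. Motifs and GC content were read in 200 bp around the centre with pysam 0.24.0, Python 3.11.15, pandas 2.3.3 and scipy 1.17.1. The steps were tested on simulated data. Some pairs that meet the naming rule below are not reported here. The members, the gene groups and the list of known pairs were chosen with earlier results of these data known. Named pairs were those with peaks in both lists, known pairs, the 6 per list nearest to the midpoint, those at the 1 kb limit, those with a TCAT tract and the 4 closest per gene group and list. Any other is said to have been chosen after its values were seen or is an extreme, a repeat or a member of a group given in full.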

Additional observations from a re-analysis of the deposited data

How the results depend on the processing

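Counts and shares were recomputed with 7 other settings, giving 34 values, of which 32 stayed within 1.5 times the count or within the interval of the share. With both starts within 500 bp, 39 OLG and 99 OPC peaks were left, with the outermost start of each gene 39 and 115, and with any base of the peak within 1 kb 54 and 152. Divergent pairs then made up 6.08%, 5.28% and 6.32% of OLG promoter peaks and 7.95%, 7.82% and 9% of OPC promoter peaks, and 12 to 19 pairs had a peak in both lists. When an overlap had to cover at least 50% of the peak, 7 OLG peaks overlapped an OPC peak in place of 11, and 8 OPC peaks in place of 10. With TCAT tracts of 16 bases, 0% of OLG peaks held one and the OPC share was the same. In 400 bp around the centre, the OLG share was 2% and the OPC share 1.38% (2 of 145), against 0.690% (1 of 145) in 200 bp. No stricter peak threshold could be tried because the lists hold no score, and no replicate could be left out. No paired analysis was possible because each group has 1 library and the results come from no test. Depth cannot be judged from these lists.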
